A study of Mus musculus with 8 samples.

Results

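The genes described here are 43 enzymes of central carbon metabolism, chosen by name from the 23997 genes of the table: 16 of glycolysis, 3 of the pyruvate dehydrogenase step, 17 of the TCA cycle and its side branches, and 7 of the pentose phosphate pathway. RNA was sequenced from marginal zone B cells, or MZBs, of the C57BL/6 mouse strain, in 4 libraries labelled with the genotype ACKR3+ and 4 labelled ACKR3-, with 4 mice in each group; the titles call the groups GFPposi and GFP-. No treatment or age is among the labels used here. ACKR3 scavenges the chemokine CXCL12 rather than signalling through G proteins. The table does not give the libraries separately: each gene has an estimated number of fragments in each of 2 pooled conditions, q2 and q1, and no label ties either column to ACKR3+ or ACKR3- cells. Values are therefore given by column, with no direction relative to ACKR3.

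Glycolysis splits glucose into pyruvate in the cytosol and yields ATP and NADH. Pyruvate is then reduced to lactate, or enters mitochondria, where pyruvate dehydrogenase and the TCA cycle oxidise it and supply carbon for biosynthesis. The pentose phosphate pathway branches off near the top of glycolysis and makes NADPH and ribose for nucleotides. B cells are known to raise glucose use when they are activated, divide or become antibody-secreting cells.

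The columns differed clearly for other genes. Ackr3 had 149 fragments in q2 and 1030.0 in q1, a log2 ratio of q2 over q1 of -2.78 ± 0.27. The value after ± is always the SD of the ratio that the deposited variances imply. For most of the enzymes it hardly differs from that of other genes of like count. It is thus not read as a spread measured for the single gene. Pooling leaves 1 value per condition, so differences could not be checked against replicates or tested. Of the genes of B cell states, the 12 of the cell cycle list had a median log2 ratio of 1.97 and all exceeded 1.5-fold toward q2. So did 7 of 9 plasma cell genes and all 8 germinal center genes, whose medians were 1.45 and 4.59. The plasma cell genes Prdm1 at 0.25 and Irf4 at -0.28 did not. Over all genes above 100 fragments, 3.39% exceeded 1.5-fold toward q2 and 1.58% toward q1. Cr2, the complement receptor that marks MZBs, was abundant in both columns, with 70851 fragments in q2 and 81167 in q1, at -0.20 ± 0.30, as was Cd79a, a signalling chain of the B cell receptor, with 30249 and 30681. The B cell state lists were not level, however. All 8 marginal zone genes had ratios below 0, with a median of -0.48, and 4 of them exceeded 1.5-fold and 2 deposited SD: Cd9 at -0.86, Asb2 at -0.82, Cd1d1 at -0.77 and S1pr3 at -0.62. Of 5 follicular genes, 4 exceeded 1.5-fold toward q2, among them Fcer2a at 1.73 and Bach2 at 1.37, while Klf2 was at -0.26. Markers of other cells had low sums: 7 T cell genes summed to 998 fragments in q2 and 763 in q1, 10 macrophage and monocyte genes to 909 and 1247, and 4 neutrophil genes to 25.6 and 17.8. Single macrophage and monocyte genes lay far apart in both directions. Of 7 above 100 fragments, 4 (Slc40a1, Vcam1, Hmox1 and Csf1r) exceeded 2-fold toward q1. Toward q2, Ly6c2 stood at 1.79 and Emr1 at 0.76 ± 0.37. Cd68 was at -0.19 ± 0.31, and the median was -1.24. Most of the T cell sum came from Lck, the only T cell gene above 100 fragments, with 689 in q2 and 524 in q1, at 0.39 ± 0.22. The T cell gene Cd3e had 36.4 fragments in q2 and 22.8 in q1. The part of these cells in the values below was not tested. In bulk RNA, fewer cells of a type and less RNA per cell cannot be told apart.

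Beside these lists, the metabolic enzymes were close to equal. Enzymes and lists were both chosen with earlier results of these data known, so this contrast is descriptive only. Of the 43, 41 had at least 100 fragments in the higher column. None of the 41 was 2-fold apart, against 2.28% of all 9582 genes above that minimum, and none was 1.5-fold apart, where 4.97% of all genes were. None was apart by more than 2 deposited SD, where 6.26% of all genes were. With background shares this low, the count of 0 among 41 is not read as particular to these enzymes. The log2 ratio was under 0.1 in either direction for 28 of the 41, against 49.0% of all genes, and beyond 1 deposited SD for 3, against 19.5%. Their median absolute log2 ratio was 0.054, beside 0.10 over all genes. For genes of 1000 to 2000 fragments, the range that held 16 of the members, the median absolute ratio was 0.042 for the members and 0.089 for the 1925 genes in it. For those of 100 to 500 fragments it was 0.20 over 4 members and 0.13 over 3398 genes. For those of 5000 to 10000 fragments it was 0.094 over 4 members and 0.091 over 407 genes, so the members were not closer to equal there.

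**Figure D1:**
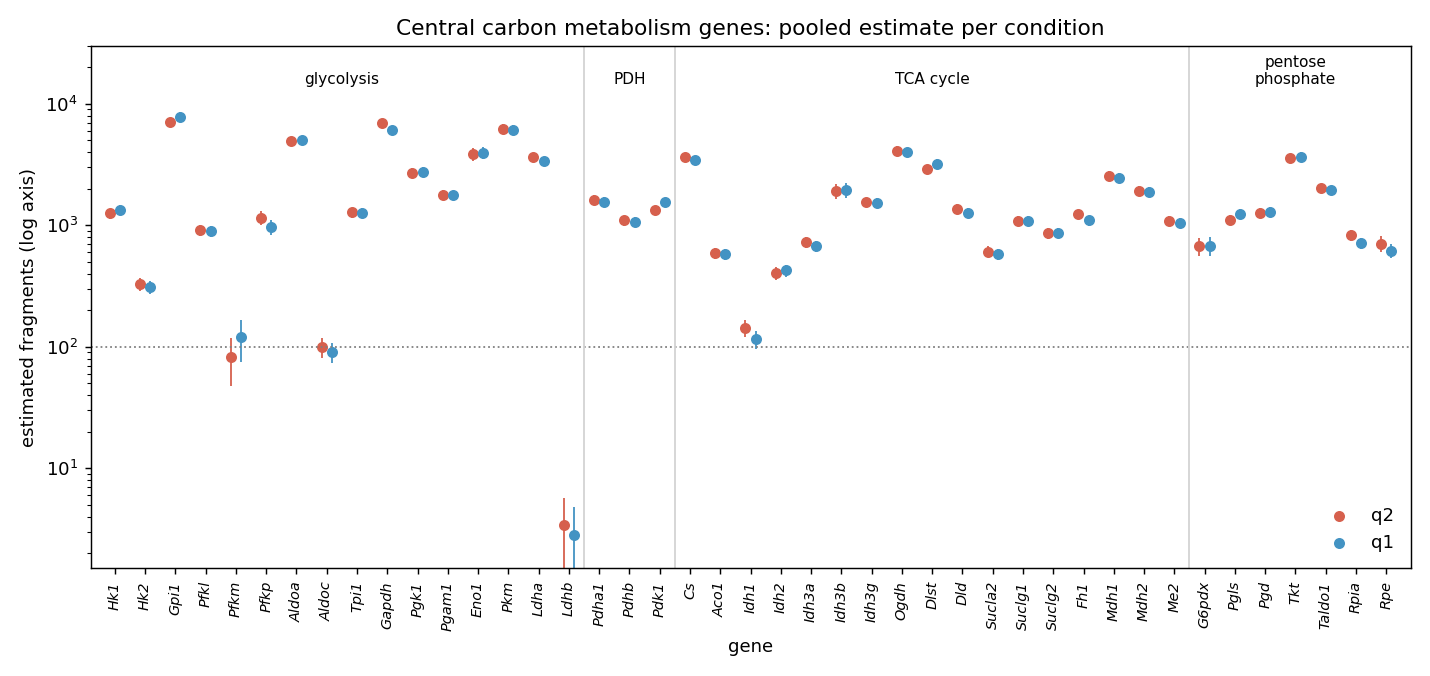
Estimated fragments (log axis) of the 43 enzymes in q2 (left of each pair) and q1 (right), with bars of 1 deposited SD and a dotted line at the minimum of 100. Ldhb lies near the floor at 3.45 and 2.81 fragments, and the other pairs lie close together.

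In total the enzymes took 0.500% of the fragments in q2 and 0.489% in q1. Glycolysis supplied 0.254% in q2 and 0.248% in q1, the TCA cycle 0.161% and 0.155%, the pentose phosphate genes 0.0613% and 0.0603%, and the pyruvate dehydrogenase genes 0.0243% and 0.0247%. The median log2 ratios were 0.017 for 14 glycolytic genes, 0.045 for 3 pyruvate dehydrogenase genes, 0.040 for 17 TCA cycle genes and -0.0039 for 7 pentose phosphate genes, beside 0.0005 over all genes. With both columns scaled to equal totals they were 0.036, 0.064, 0.059 and 0.015, and after correction for transcript length, GC content and mean level they were 0.076, 0.030, 0.046 and 0.054, so the pentose phosphate median has no stable sign. Of the 41, 26 were higher in q2 and 15 in q1, where 50.2% of all genes were higher in q2. The TCA cycle had 13 genes higher in q2 and 4 in q1, all by less than 1 deposited SD.

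Glucose is first trapped by hexokinases. Hk1, the broadly expressed form, had 1252 fragments in q2 and 1349 in q1, a log2 ratio of -0.11 ± 0.19. Hk2, the form often raised in proliferating cells, had 326 and 312 fragments, at 0.064 ± 0.25. Hexokinase transcript was mostly Hk1 in both columns: per kilobase of the longest annotated transcript, Hk1 made up 81.2% of the family in q2 and 81.7% in q1, Hk2 16.4% and 14.7%, and Hk3, which is not among the 43, 2.44% and 3.59%. Gpi1, which isomerises glucose phosphate, was the enzyme with the most fragments, 7049 in q2 and 7861 in q1, at -0.16 ± 0.18.

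Phosphofructokinase, the committed step of glycolysis, showed the widest spread within a family. Pfkp, the platelet-type subunit, had 1158 fragments in q2 and 967 in q1, at 0.26 ± 0.28. Pfkl, the liver-type subunit, was near equal with 911 and 896 fragments, at 0.023 ± 0.20. Pfkm, the muscle-type subunit, had 83.0 fragments in q2 and 120.5 in q1. Its log2 ratio of -0.53 ± 0.81 was the largest in size of all 41, and less than its own SD. The exact 95% counting interval of that ratio was -0.95 to -0.12, much narrower than the deposited variance allows. Per kilobase, Pfkl made up 60.1% of the family in q2 and 61.1% in q1, Pfkp 32.8% and 28.3%, and Pfkm 7.09% and 10.6%. The order of Pfkl and Pfkp depends on the length used: with the mean length of coding transcripts Pfkp led, with 55.4% in q2 and 50.3% in q1.

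**Figure D2:**
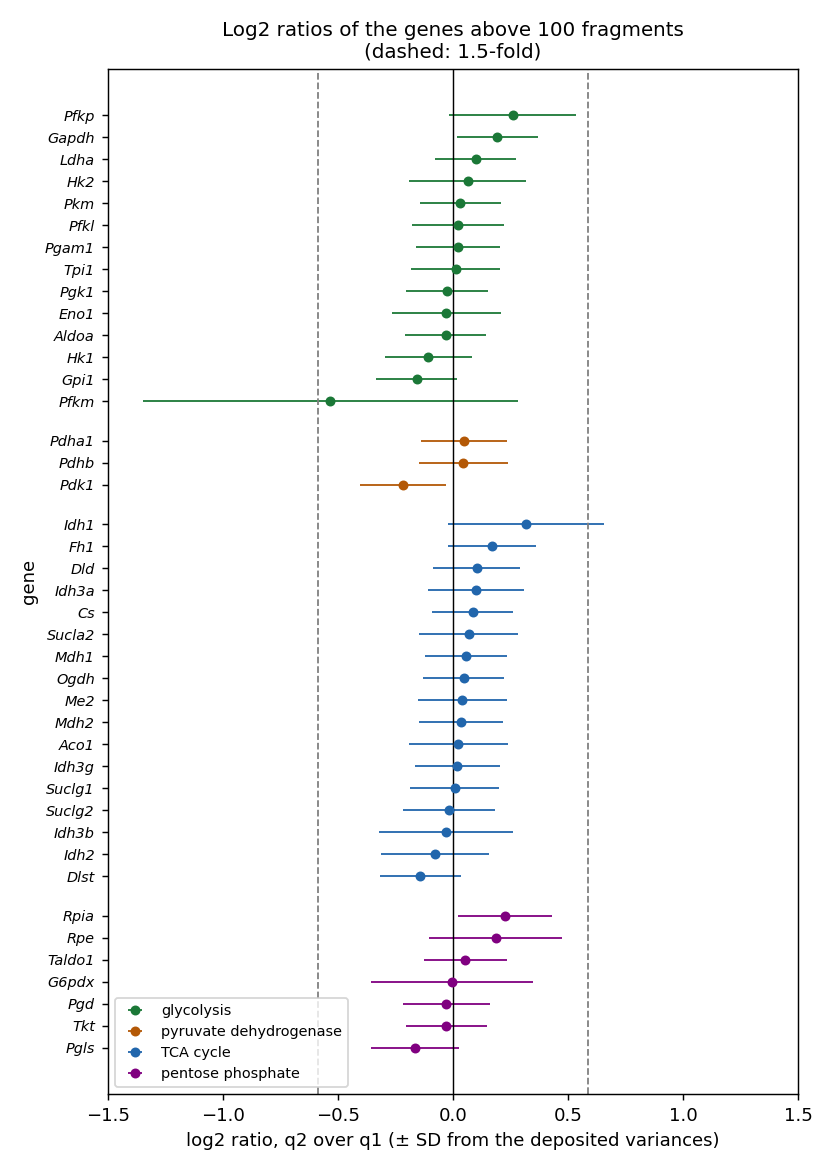
Log2 ratio of q2 over q1 (horizontal axis) of the 41 enzymes above 100 fragments, grouped by pathway, with bars of 1 SD from the deposited variances. All points lie between the dashed lines at 1.5-fold, from -0.53 for Pfkm to 0.32 for Idh1.

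In the middle of glycolysis, aldolase cleaves the sugar and triose phosphate isomerase interconverts the products. Aldoa had 4918 fragments in q2 and 5027 in q1, at -0.032 ± 0.17, and made up 98.9% of aldolase transcript per kilobase in q2 and 99.0% in q1. Aldoc, the brain-type form, stayed under the minimum with 99.6 and 90.4 fragments. Tpi1 had 1277 fragments in q2 and 1265 in q1, at 0.013 ± 0.19. Corrected for transcript length, GC content and mean level, the ratio of Aldoa was 0.073 and that of Tpi1 0.069.

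The later steps make ATP and pyruvate. Gapdh (chromosome 6, 125161715 to 125166467, GRCm38), which makes NADH and is widely used as a reference transcript, had 6913 fragments in q2 and 6047 in q1. Its log2 ratio of 0.19 ± 0.18 was one of the 3 beyond 1 deposited SD. The ATP-forming kinase Pgk1 had 2715 and 2764 fragments, at -0.025 ± 0.18, and the mutase Pgam1 1789 and 1764, at 0.021 ± 0.18. Pkm, pyruvate kinase, had 6248 fragments in q2 and 6114 in q1, at 0.031 ± 0.18; its splice forms are not separate in the table. Both columns were thus near equal over these steps, with Gapdh the farthest from 0. After correction for transcript length, GC content and mean level ratios were 0.27 for Gapdh, 0.14 for Pkm, 0.014 for Pgk1 and 0.079 for Pgam1.

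Enolase needs a caution. Eno1 had 3874 fragments in q2 and 3951 in q1, at -0.029 ± 0.24, and its near-identical copy Eno1b had 289.98 and 398 fragments, at -0.46 ± 0.017. The SD of Eno1b is smaller than counting error alone would give at so few fragments, so it is not read as its precision. Reads of such a pair can be divided between them by the counting, so their single values are uncertain. Summed, the pair had 4164 fragments in q2 and 4349 in q1, a log2 ratio of -0.063. Corrected for transcript length, GC content and mean level, the ratio of Eno1 alone was 0.078. Gapdh, Aldoa, Pgk1, Ldha and other abundant glycolytic genes also have processed copies in the mouse genome, and how reads shared with them were counted is not given in the sources used here.

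Lactate dehydrogenase was almost entirely the Ldha form, which favours lactate production. Ldha (chromosome 7, 46841475 to 46855627) had 3629.9 fragments in q2 and 3388 in q1, at 0.099 ± 0.18. Ldhb, the form abundant in heart, had 3.45 and 2.81 fragments and stayed under the minimum. Ldha made up 99.9% of the family per kilobase in both columns.

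Per kilobase of transcript the 6 most abundant enzymes were Aldoa, Pkm, Gpi1, Gapdh, Ldha and Eno1, in both columns and by either length. By the longest transcript Aldoa led with 3175 fragments per kilobase in q2 and 3245 in q1. By mean coding length Gapdh led with 7149 and 6253, because its longest annotated transcript is 3289 bases and its coding transcripts average 967.

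**Figure D3:**
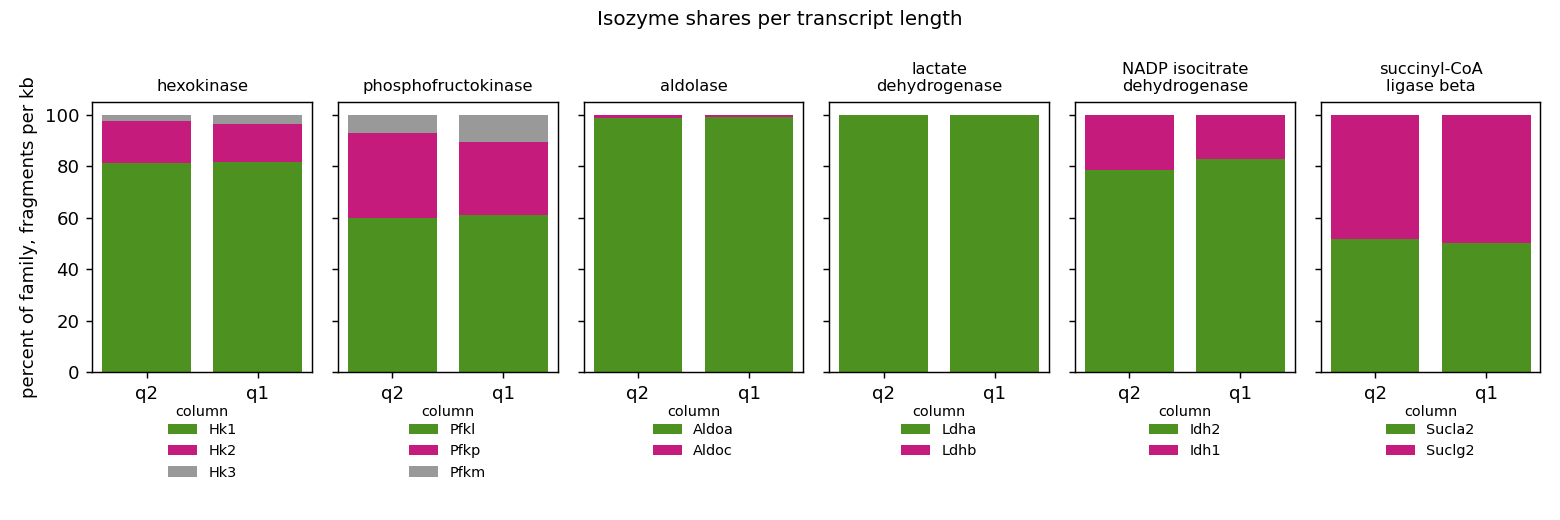
Share of each isozyme in its family in percent, from fragments per kilobase of the longest transcript, in q2 (left bar) and q1 (right bar). The widest moves are in phosphofructokinase, where Pfkp is 32.8% in q2 and 28.3% in q1, and in NADP isocitrate dehydrogenase, where Idh1 is 21.7% and 17.3%.

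Pyruvate dehydrogenase turns pyruvate into acetyl-CoA. Its subunits Pdha1 and Pdhb had 1615 and 1099.9 fragments in q2 and 1563 and 1066 in q1, at 0.048 ± 0.19 and 0.045 ± 0.19. Pdk1 (chromosome 2, 71873224 to 71903858), the kinase that inhibits the complex, had 1328 fragments in q2 and 1543 in q1. Its log2 ratio of -0.22 ± 0.19 was the largest of the 41 relative to its SD, at 1.16 SD.

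The TCA cycle begins with citrate synthase. Cs had 3647 fragments in q2 and 3436 in q1, at 0.086 ± 0.18. Aco1, the cytosolic aconitase that doubles as an iron-responsive RNA-binding protein, had 589 and 579, at 0.024 ± 0.22. The NAD-dependent isocitrate dehydrogenase subunits stayed together: Idh3a had 725 fragments in q2 and 677 in q1, Idh3b 1919.6 and 1959, and Idh3g 1555 and 1534, with log2 ratios of 0.099 ± 0.21, -0.029 ± 0.29 and 0.019 ± 0.18.

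The NADP-dependent isocitrate dehydrogenases make NADPH. Idh1 (chromosome 1, 65158616 to 65186500), the cytosolic enzyme, had 144 fragments in q2 and 115 in q1, and its log2 ratio of 0.32 ± 0.34 was the largest toward q2. Its exact 95% counting interval of -0.039 to 0.69 includes 0. Idh2, the mitochondrial enzyme, had 404 and 427 fragments, at -0.078 ± 0.24. Idh2 was the main form in both columns, with 78.3% of the pair per kilobase in q2 and 82.7% in q1.

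The next step is carried out by the oxoglutarate dehydrogenase complex. Its catalytic subunit Ogdh had 4123 fragments in q2 and 3989 in q1, at 0.048 ± 0.18. Dlst, the succinyl-transferring subunit, had 2908 and 3208, at -0.14 ± 0.18, the lowest ratio in the cycle. Dld, the subunit shared with pyruvate dehydrogenase, had 1361 and 1267, at 0.10 ± 0.19. Subunits of the complex thus lay on both sides of 0.

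Succinyl-CoA ligase has a common alpha subunit and alternative beta subunits. Suclg1, the alpha subunit, had 1092 fragments in q2 and 1086 in q1, at 0.0081 ± 0.19. The beta subunits Sucla2, which serves ADP, with 609 and 581 fragments, and Suclg2, which serves GDP, with 859 and 869.9, were at 0.069 ± 0.22 and -0.018 ± 0.20. Per kilobase they were near equal partners, with Sucla2 at 51.7% of the pair in q2 and 50.2% in q1.

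The cycle closes through fumarase and malate dehydrogenase. Fh1, fumarase, had 1235 fragments in q2 and 1099 in q1, at 0.17 ± 0.19. The cytosolic Mdh1 had 2560.2 and 2461, at 0.057 ± 0.18, and the mitochondrial Mdh2 1936 and 1889, at 0.035 ± 0.18. Me2, the mitochondrial malic enzyme, had 1085 and 1055, at 0.040 ± 0.19.

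In the oxidative branch of the pentose phosphate pathway the ratios were near or below 0. G6pdx, the rate-limiting dehydrogenase, had 676 fragments in q2 and 678 in q1, at -0.0039 ± 0.35. Pgls, the lactonase, had 1116 and 1250.4, at -0.16 ± 0.19, and Pgd, the decarboxylating dehydrogenase, 1272 and 1297, at -0.029 ± 0.19. In the non-oxidative branch, which makes ribose phosphate, Rpia (chromosome 6, 70765720 to 70792232), the ribose phosphate isomerase, had 832 fragments in q2 and 711 in q1. Its log2 ratio of 0.23 ± 0.20 was, with Gapdh and Pdk1, beyond 1 deposited SD. Rpe, the epimerase, had 705 and 619.5, at 0.19 ± 0.29. The transferases were near equal, with Tkt at 3590.4 and 3664 fragments and a ratio of -0.029 ± 0.18, and Taldo1 at 2026 and 1951 and 0.054 ± 0.18. Signs of the ratios of G6pdx and Tkt changed when ratios were corrected for transcript length, GC content and mean level, and that of G6pdx also with equal totals.

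The precision differed between members. The median coefficient of variation from the deposited variances was 9.30% in q2 and 9.32% in q1. For 6 members it was over 1.1 times the running median of 101 genes of like count in both columns: Pfkm, G6pdx, Rpe, Pfkp, Idh3b and Eno1. Pfkm stood out with 43.1% in q2 and 37.3% in q1, where genes of like count had 19.8% and 17.2%. For the other members above 100 fragments the coefficient stayed near the running median, with Tpi1 the farthest at 1.03 times in both columns. Their SDs thus largely restate the fragment count, and so do the comparisons with 1 or 2 deposited SD.

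**Figure D4:**
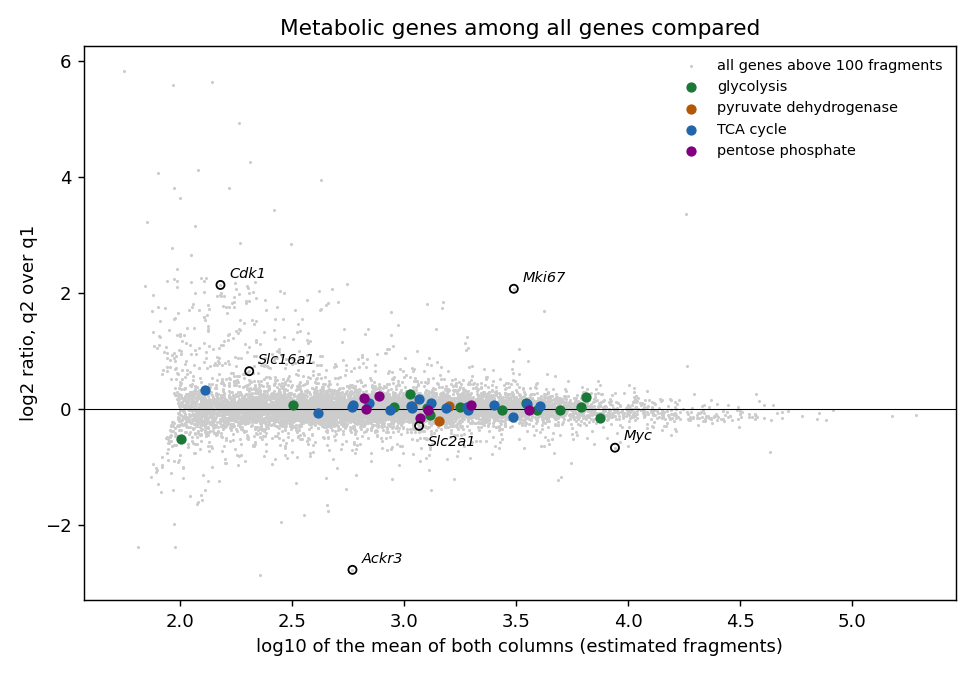
Log2 ratio of q2 over q1 against the log10 mean of both columns for the 9582 genes above 100 fragments, with the enzymes coloured by pathway. The enzymes lie in the central band around 0, while Mki67, Cdk1 and Ackr3 lie outside it and Myc lies at -0.67.

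The further metabolic genes were taken from 8 lists of 86 symbols, of which 85 were in the table and 52 reached 100 fragments. Beyond 1.5-fold were 1 of these 52 toward q2 and 1 toward q1, beside 3.39% and 1.58% of all genes. Their median log2 ratio was -0.044, with 20 higher in q2 and 32 in q1.

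Both genes beyond 1.5-fold act at the edges of the pathway. Slc16a1, a lactate and pyruvate transporter, had 249 fragments in q2 and 159 in q1, at 0.65 ± 0.29. Myc, the transcription factor that drives many glycolytic genes in dividing cells, had 6728 fragments in q2 and 10738 in q1, at -0.67 ± 0.19. Hif1a, the oxygen-regulated factor that also drives glycolysis, had 2582 and 2342, at 0.14 ± 0.18. Of the other transporters, the glucose carriers Slc2a1, with 1048 and 1289 fragments, and Slc2a3, with 1241 and 1450.1, were at -0.30 ± 0.19 and -0.22 ± 0.19. Slc16a7 was at 0.25 ± 0.34. Slc2a2 and Slc2a4 were listed at 0 in both columns.

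Among regulators of pyruvate entry, the kinase Pdk3 had 383 fragments in q2 and 302 in q1, at 0.34 ± 0.25, while Pdk2 was at -0.18 ± 0.30 and the phosphatase Pdp1 at 0.31 ± 0.35. In the same list 4 of 11 genes were higher in q2. The activator of phosphofructokinase Pfkfb3 was at -0.11 ± 0.19. Other glycolytic enzymes, 4 of 5 of them higher in q1, had a median of -0.16, with Eno3 at -0.21 ± 0.23, Bpgm at 0.20 ± 0.26 and Pgm1 at -0.19 ± 0.24.

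The remaining lists had medians near 0. Other TCA cycle genes had a median of 0.026 over 9 genes, with the assembly factors Sdhaf1 and Sdhaf2 of succinate dehydrogenase at -0.17 ± 0.26 and -0.098 ± 0.18 and its subunit Sdhb at 0.12 ± 0.20. Genes of glutamine and aspartate entry had a median of -0.019 over 7, led by Glud1 at 0.10 ± 0.18, Slc25a12 at -0.089 ± 0.20 and Got1 at -0.071 ± 0.22. Other pentose phosphate genes had a median of -0.057 over 6, led by H6pd at -0.19 ± 0.22, Prpsap1 at -0.16 ± 0.19 and Prps1 at 0.12 ± 0.22. Of the gluconeogenesis genes Pck2 was at 0.17 ± 0.20 and G6pc3 at -0.17 ± 0.22.

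**Figure D5:**
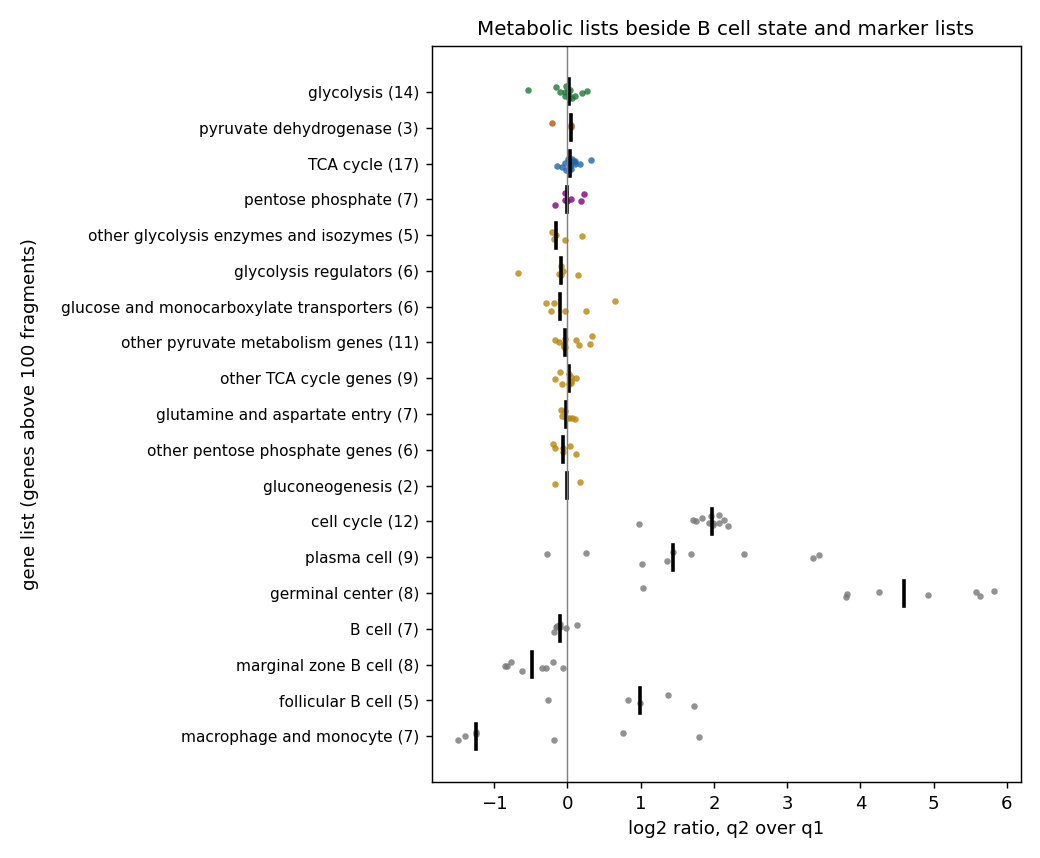
Log2 ratios of q2 over q1 of single genes (points) and list medians (black bars) for the 4 pathways, 8 further metabolic lists and 7 lists of B cell states and macrophages, each with its number of genes above 100 fragments. The pathway medians lie between -0.0039 and 0.045, while that of the cell cycle list lies at 1.97 and that of the marginal zone list at -0.48.

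Since Myc differed between the columns, the promoters of the enzymes were searched for CACGTG, the E-box that MYC and related factors bind. RefSeq promoters (GRCm38.p6) were found for 41 of the 43 genes, and the 250 bases before each start were read on both strands; the motif reads the same on either. A gene counted where any of its listed promoters held the motif, so genes with more promoters could count more easily. CACGTG occurred for 3 of the 41, Ldha, Pfkm and Ogdh, or 7.32%, beside 6.86% of all 27025 genes with a promoter. ACGTG, the core of hypoxia response elements, which every CACGTG also contains, occurred for 11 of the 41, or 26.8%, beside 18.5% of all genes. The first listed promoter with the motif is shown for Ldha (chr7:46845554-46845803, plus strand, inside the span of the annotated gene) and Pfkm (chr15:98092339-98092588, plus strand, ending just before the annotated gene). Both are printed 5′ to 3′ with CACGTG in capitals, because they hold the motif and the ratios of their genes differ in sign. Which start these cells use was not tested.
Ldha: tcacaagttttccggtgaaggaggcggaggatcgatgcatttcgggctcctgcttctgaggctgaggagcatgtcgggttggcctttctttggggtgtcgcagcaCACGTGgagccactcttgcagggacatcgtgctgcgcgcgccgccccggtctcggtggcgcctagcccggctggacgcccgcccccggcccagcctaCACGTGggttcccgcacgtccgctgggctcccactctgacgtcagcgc
Pfkm: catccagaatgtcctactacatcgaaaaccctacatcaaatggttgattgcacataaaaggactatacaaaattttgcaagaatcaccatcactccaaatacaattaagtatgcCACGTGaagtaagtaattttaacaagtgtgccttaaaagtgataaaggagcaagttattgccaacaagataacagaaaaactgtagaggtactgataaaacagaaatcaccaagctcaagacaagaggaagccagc
The Ldha promoter holds the motif at 145 to 140 and again at 48 to 43 bases before the start, and the Pfkm promoter at 136 to 131. The log2 ratios of the 3 genes with the motif were 0.099 ± 0.18 for Ldha, 0.048 ± 0.18 for Ogdh and -0.53 ± 0.81 for Pfkm, none beyond its SD. A match describes these letters in this window and not binding.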

How the data were processed

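Total RNA from marginal zone B cells was extracted with Trizol and made into libraries with an Illumina TruSeq RNA kit, per the labels' protocols. Per the submitters' processing notes, cutadapt 1.8.1, TopHat2 2.0.14, Cuffdiff 2.2.1 and the mm10 build were used; for annotation, strand setting and filters no source used here gives a statement. The deposited table is, per the file headers, Cuffdiff's estimated count of fragments for each of 2 conditions (q1 and q2) with its variance. The expected counts the authors deposited are pooled over libraries, and their scaling is not stated.

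Log2 ratios of q2 over q1 used a pseudocount of 1 and the 9582 genes whose higher column reached 100 fragments. SDs of ratios came to first order from the variances the authors deposited, which hold no isoform assignment part for any gene. With 1 value per condition there was no test. The size rules were 1.5-fold, 2-fold and 2 SD. Estimated fragments summed to 16653774 in q2 and 16877559 in q1. These sums need not equal the sequencing depth, and depth per library is unknown. Intervals are exact (Clopper-Pearson, 95%), treat estimated fragments as counts and cover counting error only. Transcript lengths and positions came from GENCODE M21 (GRCm38, named mm10 in the notes), which matched all 43 members and 22694 of 23997 symbols. Promoters came from RefSeq (GRCm38.p6).

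All 43 members are reported. Other genes named were the 3 largest absolute ratios of each further metabolic list, plus Slc2a1, Hif1a and Myc; other names beyond these were chosen after their values were seen. Members and lists were chosen with earlier results of these data known. Alternatives were minimums of 20 and 500, pseudocounts of 0 and 10, 2 scalings, a quadratic correction for transcript length, GC content and mean level, and mean coding length for isozyme shares. Calculations (Python 3.11.15, numpy 2.4.6, pandas 2.3.3, scipy 1.17.1) were tested on simulated data.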

Additional observations from a re-analysis of the deposited data

How the results depend on the processing

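No paired analysis was possible because libraries were pooled within each condition before deposit, which leaves no replicate numbers; neither leaving out a library nor a count test per library could be run on pooled values. The 5 medians (the 4 pathways and all members together) were recomputed under the 2 pseudocounts, 2 scalings, 2 minimums and the correction for length, GC content and mean level. They stayed within the counting interval of the member nearest to them. The medians are small beside such intervals, as with -0.0039 beside -0.16 to 0.15 for G6pdx, so this check could hardly fail. Several still moved by over 1.5 times: under the correction the glycolysis median was 0.076 (0.017 as reported), that of all members 0.055 (0.024) and that of the pentose phosphate genes 0.054 (-0.0039), and with equal totals these were 0.036, 0.043 and 0.015. The pentose phosphate median thus turned sign under both. No member was 1.5-fold apart as reported or under the other settings, except that the correction put 1 member beyond it toward q1, Pfkm at -0.59. Over all genes the share at least 1.5-fold apart was 4.97% as reported, 8.13% with a minimum of 20 (11163 genes) and 2.55% with 500 (6184 genes). Of 205 recomputed ratios of members, 7 moved beyond counting error, all under the correction. They were those of Gpi1, Aldoa, Gapdh, Eno1, Pkm, Ogdh and Tkt, and all shifted in the direction of q2. Aldoa went from -0.032 to 0.073, Eno1 from -0.029 to 0.078, Pkm from 0.031 to 0.14 and Gapdh from 0.19 to 0.27. As no member met a size rule as reported, no called value could be among them. In all, 7 small ratios changed sign under the correction and 2 (Suclg2 and G6pdx) under equal totals. With mean coding length the leading shares moved to 89.2% in q2 and 89.7% in q1 for Hk1, to 40.5% and 43.3% for Pfkl, and to 74.2% and 79.1% for Idh2, because the length entered the share directly. The number of fragments limits Ldhb, Aldoc and Pfkm more than the abundant members, and the spread between mice cannot be seen at any level.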
